A study of Mus musculus with 8 samples.

Results

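The imprinted Igf2-H19 and Dlk1-Meg3 loci were examined as 2 windows of the mouse genome build mm9, chr7:149740001-149880000 (140 kb, with H19 near 149.76 Mb and Igf2 near 149.84 Mb) and chr12:110670001-111000000 (330 kb, with Dlk1 near 110.69 Mb, Meg3 near 110.78 Mb and then Rian and Mirg). The windows were chosen by position, and each was set against 300 kb on each side. They held 46 of the 245206 bins of 10 kb used over chromosomes 1 to 19 and X, 14 bins at Igf2-H19 and 32 at Dlk1-Meg3. The libraries came from C3H10T1/2 cells, mesenchymal progenitors derived from embryos of C3H mice, at passage 10 to 15. Each of 4 lines stably expressed 1 histone with a FLAG-HA tag, namely H3.3K36M, H3.3WT, H3.1K36M or H3.1WT, and all kept their own untagged histones. K36M is a change of lysine to methionine in the histone tail. The sources used here do not say whether a line was 1 clone or a pool. Titles of both H3.3 ChIP libraries begin with an H3.1 name, and their genotype labels were followed.

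Each line gave 1 library of HA chromatin immunoprecipitation and sequencing (ChIP-seq), which records where the tagged histone sits, and values are RPM, reads scaled to the library total, per 10 kb bin. Depth was 38783917 reads for H3.3K36M, 46749609 for H3.3WT, 41705735 for H3.1K36M and 35487141 for H3.1WT, and the median bin of the genome held 116, 129, 151 and 129 reads in that order of libraries. Its level was 3.004 RPM for H3.3K36M and 2.77 RPM for H3.3WT, and 3.64 RPM for H3.1K36M and 3.65 RPM for H3.1WT. Since every line has a single library, differences between lines could not be checked against replicates. Every interval below is a 95% interval from read counts and covers counting error only. Input libraries were not analysed here, so background reads cannot be told apart from histone placement. Levels of H3.3 and H3.1 given below are HA signal of the tagged histone, and the untagged histones were not measured. Reads were not assigned to the maternal or the paternal chromosome, so every value is the sum over both.

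Imprinted genes are expressed mainly from the chromosome inherited from 1 parent, according to DNA methylation set in the germ line. At the first locus the paternal chromosome expresses Igf2, a growth factor of the fetus, and the maternal chromosome expresses H19, a long noncoding RNA. A control region just upstream of H19 binds the insulator protein CTCF when it is unmethylated and so keeps Igf2 from enhancers on the far side of H19. At the other locus the paternal chromosome expresses Dlk1, a transmembrane protein of the Notch ligand family that holds preadipocytes undifferentiated, and the maternal chromosome expresses the noncoding RNAs Meg3, Rian and Mirg, which carry many small RNAs. A methylated control region lies between Dlk1 and Meg3. H3.1 is put into chromatin mainly during replication, whereas H3.3 is also put in outside replication, for example at genes being transcribed and at enhancers. H3 with methionine at position 36 is known to inhibit enzymes that methylate this lysine.

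Sequences just before 3 of the genes are shown because the bins below are named by their place relative to these genes. These are the 250 bases before an annotated start, 5′ to 3′, from the RefSeq promoter table of build GRCm38.p6, with every CG dinucleotide, the target of imprinting methylation, in capitals. Their coordinates belong to GRCm38.p6 and cannot be set against those of the bins, which are in mm9.
Igf2 (chr7:142658805-142659054, minus strand, the start with the most CG of 4 listed): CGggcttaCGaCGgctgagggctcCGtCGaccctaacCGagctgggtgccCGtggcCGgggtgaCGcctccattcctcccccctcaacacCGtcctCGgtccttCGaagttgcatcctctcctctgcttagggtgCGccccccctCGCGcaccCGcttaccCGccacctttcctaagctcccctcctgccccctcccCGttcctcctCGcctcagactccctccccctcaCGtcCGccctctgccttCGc
Dlk1 (chr12:109452573-109452822, plus strand): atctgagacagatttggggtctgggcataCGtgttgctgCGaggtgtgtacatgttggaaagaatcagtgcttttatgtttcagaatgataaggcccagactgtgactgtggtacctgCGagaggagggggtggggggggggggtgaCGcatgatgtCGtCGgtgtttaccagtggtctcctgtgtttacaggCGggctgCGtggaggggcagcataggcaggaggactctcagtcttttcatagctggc
Meg3 (chr12:109540746-109540995, plus strand, the upstream start of 2 listed): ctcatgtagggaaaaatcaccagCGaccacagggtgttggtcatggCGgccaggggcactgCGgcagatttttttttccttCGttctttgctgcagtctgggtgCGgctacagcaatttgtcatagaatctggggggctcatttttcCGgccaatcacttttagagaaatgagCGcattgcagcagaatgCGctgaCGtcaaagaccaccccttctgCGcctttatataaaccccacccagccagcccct
The Igf2 sequence held 22 CG, and 14.8% of the 32851 promoter sequences of this length in the table held at least as many. The Meg3 sequence held 10 CG (37.8% of promoters held at least as many) and the Dlk1 sequence 8 (43.0%). The other listed Igf2 starts held 6, 10 and 1 CG, and the other Meg3 start held 0. The sequence before Mirg held 10 CG, and that before Rian held 0. No H19 start was listed.

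The noncoding members also carry microRNAs, a feature for which these regions are known. The RefSeq microRNA table (GRCm38.p6) listed 112 mature microRNAs between the start of Meg3 and the end of Mirg, of which 19 lay inside Mirg, 6 inside Rian and 3 inside Meg3. Inside H19 it listed both arms of miR-675, and within Mirg the mature miR-453 and miR-496a-5p shared the same seed. The sequences below show these arms 5′ to 3′, with the seed (bases 2 to 8) in capitals.
mmu-miR-675-5p (in H19): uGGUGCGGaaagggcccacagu
mmu-miR-675-3p (in H19): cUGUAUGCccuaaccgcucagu
mmu-miR-453 (in Mirg): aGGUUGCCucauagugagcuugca
mmu-miR-496a-5p (in Mirg): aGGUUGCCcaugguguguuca
ChIP signal in 10 kb bins does not measure these RNAs, and no value below is an expression level.

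The Igf2-H19 window carried an ordinary amount of H3.3 and somewhat more H3.1 than most of the genome, and K36M and WT lines were close. The mean over its 14 bins was 3.03 RPM for H3.3K36M and 2.92 RPM for H3.3WT (SD over bins 0.632 and 0.495), which is 1.01 and 1.05 times the library medians. It was 4.35 RPM for H3.1K36M and 4.03 RPM for H3.1WT (SD over bins 0.852 and 0.855), or 1.20 and 1.10 times the medians. The SD over bins describes variation along the locus, not between replicates. The middle bin of the window stood above 51.3% of all bins in H3.3K36M, 53.1% in H3.3WT, 82.7% in H3.1K36M and 67.3% in H3.1WT.

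**Figure D1:**
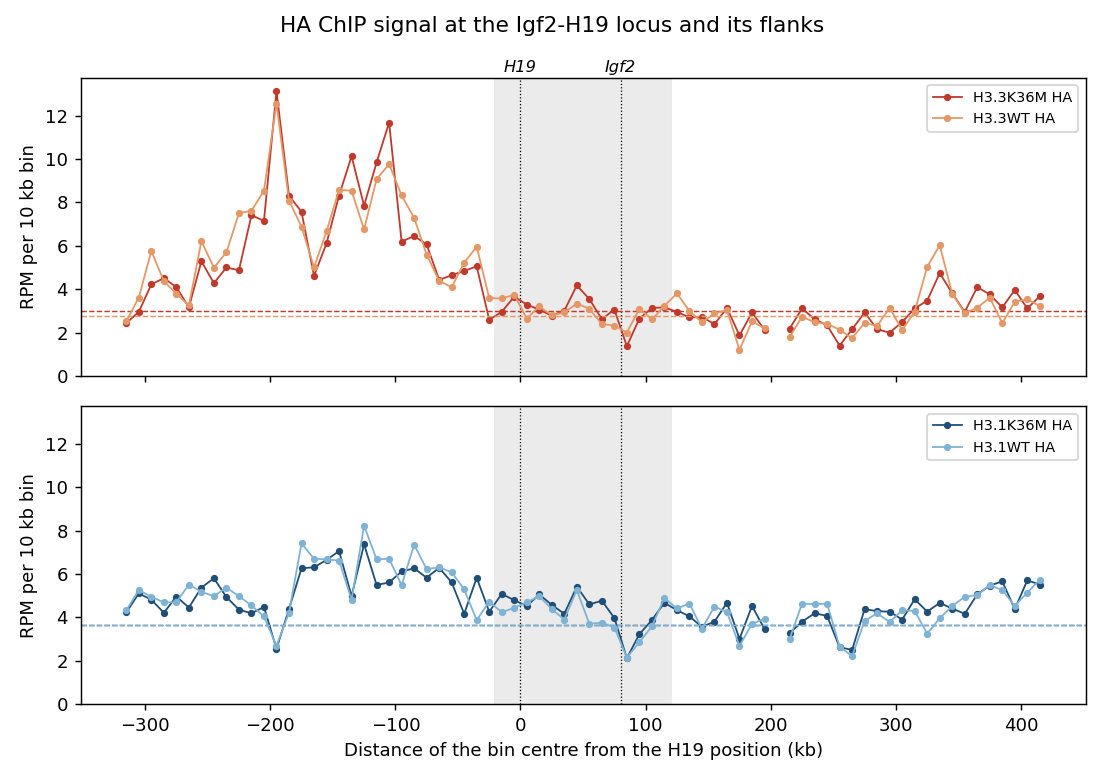
HA ChIP signal in RPM per 10 kb bin (y axis) against the distance of each bin from the H19 position in kb (x axis), with H3.3K36M and H3.3WT above and H3.1K36M and H3.1WT below; the grey band is the Igf2-H19 window, dotted lines mark the gene positions, dashed lines the genome median of each library, and gaps are bins not used. H3.3 reached 13.1 RPM for H3.3K36M before the window and lay near the genome median across it, and all 4 libraries had their lowest window value in the bin that holds the Igf2 position.

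At H19, the noncoding member of the locus, the bin chr7:149760001-149770000 held 3.29 RPM for H3.3K36M and 2.64 RPM for H3.3WT, a ratio of 1.24 (0.963 to 1.61). The same bin held 4.53 RPM for H3.1K36M and 4.698 RPM for H3.1WT, a ratio of 0.964 (0.779 to 1.196). Both intervals include 1, so no difference between the lines was detectable there at this depth. Over that bin and the bins touching it (30 kb) the means were 3.33 RPM for H3.3K36M, 3.196 RPM for H3.3WT, 4.80 RPM for H3.1K36M and 4.71 RPM for H3.1WT.

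The bin with the Igf2 position, chr7:149840001-149850000, was the lowest of the window in every library. It held 1.37 RPM (53 reads) in H3.3K36M, 1.9995 RPM (93 reads) in H3.3WT, 2.12 RPM (88 reads) in H3.1K36M and 2.15 RPM (76 reads) in H3.1WT. Only 4.62% of all bins were lower in H3.3K36M, 5.83% in H3.1K36M and 6.46% in H3.1WT, whereas 30.9% were lower in H3.3WT. H3.3K36M was thus 0.687 times H3.3WT in this bin (0.480 to 0.972), the lowest ratio of the window, and H3.1K36M was 0.986 times H3.1WT (0.717 to 1.36). The neighbouring bin on the H19 side, chr7:149830001-149840000, had the highest such ratio, 1.32 (1.01 to 1.73), with 3.06 RPM for H3.3K36M and 2.32 RPM for H3.3WT. These bins were named as extremes of 14, which favours such values, and over the 30 kb around Igf2 the ratio was 0.953 (0.810 to 1.12).

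The stretch between the genes gave the highest window value in 3 of the 4 libraries. The bin chr7:149800001-149810000 held 4.17 RPM for H3.3K36M, 3.33 RPM for H3.3WT, 5.42 RPM for H3.1K36M and 5.26 RPM for H3.1WT, and in H3.3WT alone another bin was higher, chr7:149750001-149760000 with 3.74 RPM. Over the 50 kb chr7:149780001-149830000 the mean was 3.22 RPM for H3.3K36M and 2.91 RPM for H3.3WT, a ratio of 1.11 (0.992 to 1.24). In H3.1 it was 4.71 RPM for H3.1K36M and 4.21 RPM for H3.1WT, a ratio of 1.12 (1.02 to 1.23). The control region upstream of H19 is narrower than a bin, was not placed on the bins and is not resolved.

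Over the whole Igf2-H19 window H3.3K36M was 1.04 times H3.3WT (0.970 to 1.11) and H3.1K36M was 1.08 times H3.1WT (1.02 to 1.15). The direction in H3.3 depended on scaling, since the median bin log2 ratio was 0.01 as deposited and -0.089 with the median of all bins subtracted. Bins that differed by 2-fold, taken on RPM plus 0.1, were also counted, which ranks bins by size and tests nothing. Across the genome, H3.3K36M exceeded H3.3WT by 2-fold in 2.94% of bins and fell short of it by 2-fold in 1.81%, and for H3.1K36M and H3.1WT these shares were 0.0122% and 0.064%. In either comparison 0 of the 14 bins passed in either direction. H3.3K36M was below H3.3WT in 7 of 14 bins, against 41.6% of all bins, and H3.1K36M was below H3.1WT in 3 of 14, against 50.2%. Set against the flanks, the K36M over WT ratio of the window was 1.07 times that of the flanks in H3.3 (0.992 to 1.14) and 1.10 times in H3.1 (1.03 to 1.17).

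The Dlk1-Meg3 window differed from this. Its HA signal of tagged H3.3 was lower in the K36M library than in the WT library along nearly its whole length. The mean over its 32 bins was 3.37 RPM for H3.3K36M and 4.37 RPM for H3.3WT (SD over bins 1.18 and 1.31), a ratio of 0.770 (0.741 to 0.801). H3.3K36M was below H3.3WT in 30 of 32 bins, against the 41.6% of all bins given above. In H3.1 the means were 3.81 RPM for H3.1K36M and 4.02 RPM for H3.1WT (SD over bins 0.480 and 0.709), a ratio of 0.947 (0.910 to 0.986), and 23 of 32 bins were lower in H3.1K36M, against 50.2%. The H3.1 direction turned with the flank median subtracted, where the median bin log2 ratio was 0.14 and not -0.09 and 5 of 32 bins were lower. The H3.3 median bin log2 ratio stayed negative under each scaling tried, at -0.15 with the flank median subtracted. By summed reads, however, the H3.3 ratio of the window was 1.01 times that of its flanks (0.960 to 1.06). The H3.3 ratio was 0.743 times that of the Igf2-H19 window (0.688 to 0.802). Over the genome the median bin had 1.07 times as much H3.3K36M as H3.3WT, and on chromosome 12 it was 1.10, so the window lay on the other side of 1 from its chromosome.

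**Figure D2:**
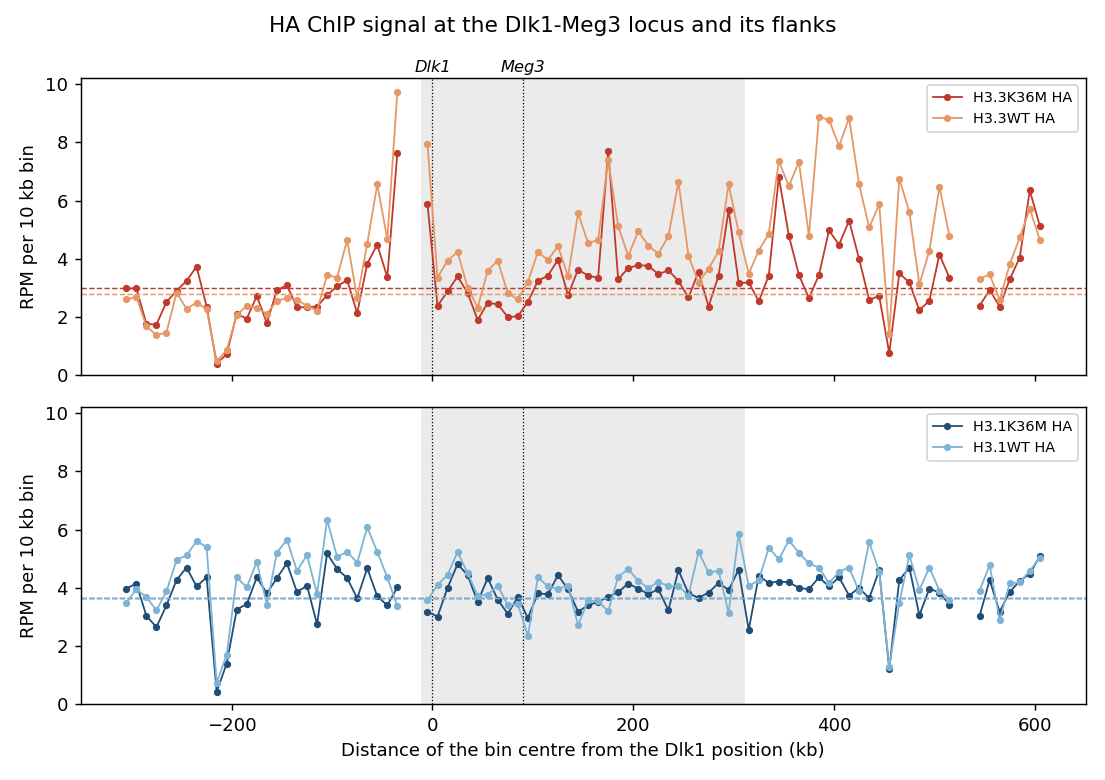
HA ChIP signal in RPM per 10 kb bin (y axis) against the distance of each bin from the Dlk1 position in kb (x axis), with H3.3K36M and H3.3WT above and H3.1K36M and H3.1WT below; the grey band covers the bins used in the Dlk1-Meg3 window, dotted lines mark gene positions, dashed lines the genome medians, and gaps are rows not used. H3.3K36M ran below H3.3WT in 30 of 32 window bins, against 41.6% of all bins. They came together at 7.72 RPM for H3.3K36M and 7.40 RPM for H3.3WT in a bin past Meg3.

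At Dlk1, the bin just before the gene position was among the richest in H3.3 of the window. That bin, chr12:110680001-110690000, held 5.88 RPM for H3.3K36M and 7.96 RPM for H3.3WT, whereas the H3.1 libraries were lower, at 3.18 RPM for H3.1K36M and 3.57 RPM for H3.1WT. It was the highest window bin of H3.3WT. The bin with the Dlk1 position, chr12:110690001-110700000, held only 2.38 RPM for H3.3K36M and 3.35 RPM for H3.3WT, with 3.01 RPM for H3.1K36M and 4.10 RPM for H3.1WT. Over these bins and the next one (30 kb) H3.3K36M was 0.731 times H3.3WT (0.647 to 0.825) and H3.1K36M was 0.842 times H3.1WT (0.734 to 0.965), so both mutant libraries were lower there. A 20 kb row at chr12:110660001-110680000, which straddles the start of the window and was left out of the means, held 10.3 RPM for H3.3K36M and 14.5 RPM for H3.3WT over its 20 kb.

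Between Dlk1 and Meg3, H3.3 was lower in both lines than in the bin just before Dlk1 and in the 200 kb past Meg3. The 30 kb around Meg3 were low as well, at 2.59 RPM for H3.3K36M and 3.35 RPM for H3.3WT. The control region between these genes was not placed on the bins. Over chr12:110710001-110770000 the mean was 2.50 RPM for H3.3K36M and 3.32 RPM for H3.3WT, a ratio of 0.755 (0.679 to 0.838). All 6 bins were lower in H3.3K36M, against 41.6% of all bins. The lowest H3.3 bin of the window lay in this stretch in both lines, chr12:110730001-110740000, with 1.89 RPM for H3.3K36M and 2.32 RPM for H3.3WT. H3.1 did not dip there, with means of 3.97 RPM for H3.1K36M and 4.12 RPM for H3.1WT, a ratio of 0.964 (0.879 to 1.06).

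At Meg3, the first of the noncoding RNAs, the bin chr12:110780001-110790000 was the lowest of the window in both H3.1 libraries, with 2.96 RPM for H3.1K36M and 2.35 RPM for H3.1WT. H3.3 was not at its minimum there, with 2.51 RPM for H3.3K36M and 3.20 RPM for H3.3WT. This bin also had the highest ratio of H3.1K36M over H3.1WT of the window, 1.26 (0.948 to 1.69), while H3.3K36M was 0.784 times H3.3WT (0.601 to 1.02). Both intervals include 1. Over 30 kb around the position the ratio was 0.774 in H3.3 (0.667 to 0.897) and 1.03 in H3.1 (0.893 to 1.19).

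The 200 kb past Meg3, chr12:110800001-111000000, in which Rian and then Mirg follow, held more H3.3 than the stretch between Dlk1 and Meg3, in both lines. Of 20 bins, 18 were lower in H3.3K36M, against 41.6% of all bins. The mean was 3.69 RPM for H3.3K36M and 4.74 RPM for H3.3WT, a ratio of 0.779 (0.743 to 0.817). In H3.1 it was 3.88 RPM for H3.1K36M and 4.09 RPM for H3.1WT, a ratio of 0.948 (0.901 to 0.997). The 100 kb nearer to Meg3 had a ratio of 0.811 (0.759 to 0.866) in H3.3 and the 100 kb farther on 0.747 (0.697 to 0.800). These intervals overlap, and the exact borders of Rian and Mirg in mm9 were not used here.

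Within these 200 kb, the highest H3.3 bin was the same in both H3.3 lines, and it was not high in the H3.1 lines. This bin, chr12:110860001-110870000, held 7.72 RPM for H3.3K36M and 7.40 RPM for H3.3WT, a ratio of 1.04 (0.891 to 1.22). H3.1K36M had 3.69 RPM there and H3.1WT 3.20 RPM. That bin was the highest of the window in H3.3K36M and 1 of the 2 bins of the window not lower there than in H3.3WT. The other was chr12:110950001-110960000, with 3.55 RPM for H3.3K36M and 3.18 RPM for H3.3WT, a ratio of 1.12 (0.877 to 1.42). That same bin had the lowest ratio of H3.1K36M over H3.1WT, 0.6997 (0.561 to 0.872), with 3.66 RPM in the H3.1K36M and 5.24 RPM in the H3.1WT library. The highest and lowest bins of this window are extremes of 32, which favours such values. Near the far end chr12:110980001-110990000, named after its value was seen, held 5.67 RPM for H3.3K36M and 6.56 RPM for H3.3WT, while H3.1K36M had 3.93 RPM and H3.1WT 3.14 RPM.

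The only bin of the window past 2-fold between the H3.3 lines was chr12:110930001-110940000, with 3.24 RPM for H3.3K36M and 6.64 RPM for H3.3WT. H3.3K36M was 2.05-fold lower there (1.66 to 2.55), and the bin stood out in H3.3WT rather than in H3.3K36M. H3.1K36M held 4.60 RPM and H3.1WT 4.08 RPM in the same bin. This 1 of 32 lower bins compares with the 1.81% of all bins given above, and 0 of 32 were 2-fold higher, against 2.94%. With a pseudocount of 1 RPM the bin no longer passed. In H3.1, 0 of 32 bins passed in either direction.

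**Figure D3:**
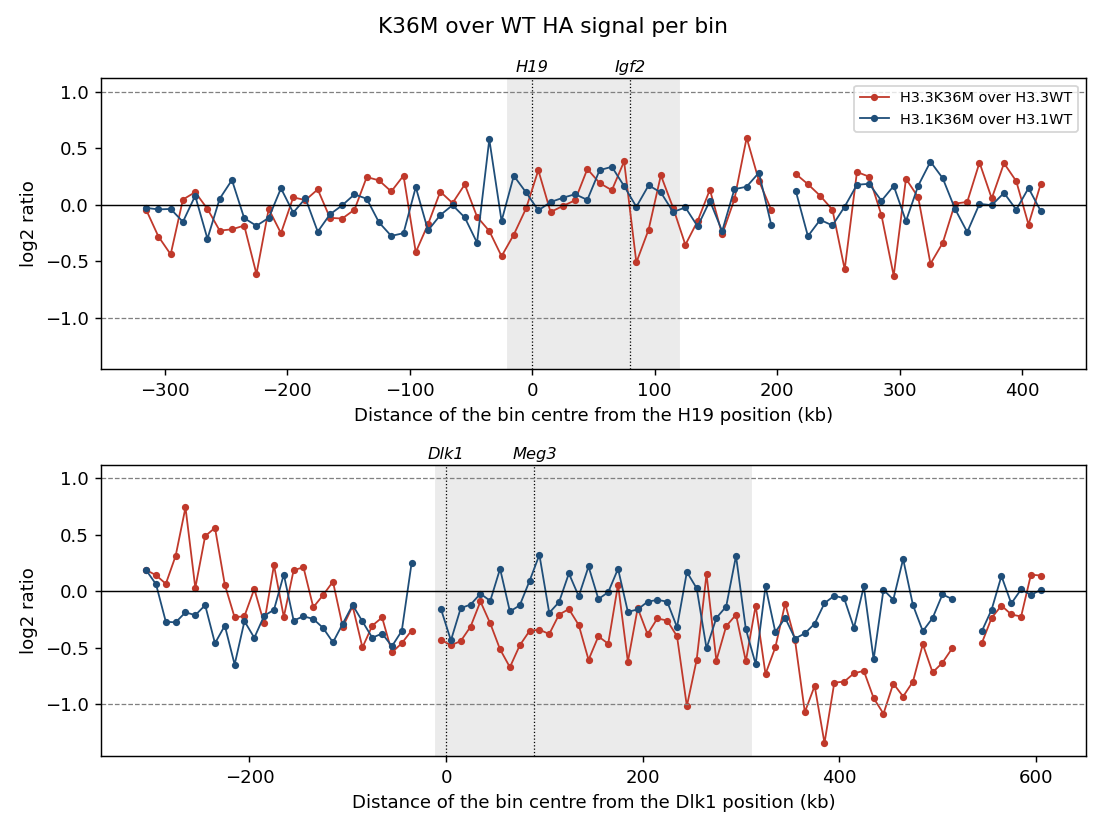
Log2 ratio per 10 kb bin (y axis, RPM plus 0.1) of H3.3K36M over H3.3WT and of H3.1K36M over H3.1WT, against the distance in kb from H19 (above) or Dlk1 (below); grey bands are the windows, dashed lines mark 2-fold. At Dlk1-Meg3 the H3.3 ratios lay below 0 in 30 of 32 window bins and in 26 of 28 bins of the flank past it. At Igf2-H19 they did so in 7 of 14 window bins, and over the genome in 41.6% of bins.

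The lower H3.3K36M signal was not confined to the Dlk1-Meg3 window. In the 300 kb past it, H3.3K36M averaged 3.59 RPM and H3.3WT 5.40 RPM, a ratio of 0.665 (0.639 to 0.692). Of 28 bins there, 26 were lower, against 41.6% of all bins, and 3 at least 2-fold lower, against 1.81%. The lowest ratio was at chr12:111070001-111080000, a bin named after its value was seen, with 3.44 RPM for H3.3K36M and 8.88 RPM for H3.3WT, 2.58-fold lower (2.12 to 3.16). In the 100 kb just before the window the means were 3.65 RPM for H3.3K36M and 4.64 RPM for H3.3WT, a ratio of 0.787 (0.732 to 0.845), with 8 of 9 bins lower. In the 200 kb before that the order turned, with 2.34 RPM for H3.3K36M and 2.11 RPM for H3.3WT, a ratio of 1.11 (1.04 to 1.19), and 6 of 19 bins lower. Over both flanks together the ratio was 0.764 (0.741 to 0.787), and the window's ratio was 1.01 times this (0.960 to 1.06). H3.1K36M was also below H3.1WT over both flanks, at 0.871 times (0.845 to 0.897), and more so than in the window, whose ratio was 1.09 times that of the flanks (1.04 to 1.14).

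H3.3 was then set against H3.1, where each library is scaled to its own total, so a ratio of 1 does not mean equal amounts of the variants and the ratio compares shares of each library. At Igf2-H19 the H3.3 share was the lower: H3.3K36M was 0.697 times H3.1K36M (0.654 to 0.742) and H3.3WT was 0.725 times H3.1WT (0.681 to 0.773). H3.3 was the lower in 14 of 14 bins in the K36M lines, against 67.9% of all bins, and in 13 of 14 in the WT lines, against 64.3%. With the median of all bins subtracted, 8 of 14 bins were lower in the WT lines, and 7 of 14 with that of the chromosome, so the WT count rested on library scaling. In the K36M lines 12 of 14 stayed lower with either median subtracted. As deposited, the exception in the WT lines was chr7:149850001-149860000, just past the Igf2 position. It was at 0.818 times (0.626 to 1.07) in the K36M lines and 1.08 times (0.834 to 1.41) in the WT lines. The lowest ratio lay at chr7:149820001-149830000 in the K36M lines, 0.548 (0.427 to 0.700), and in the H19 bin in the WT lines, 0.563 (0.442 to 0.715). Both are extremes of 14 bins, which favours low values. The genome medians of these ratios were 0.811 in the K36M lines and 0.740 in the WT lines, so a ratio below 1 was common.

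At Dlk1-Meg3 H3.3 relative to H3.1 differed between the K36M and the WT lines and along the locus. Over the window H3.3K36M was 0.884 times H3.1K36M (0.848 to 0.921), whereas H3.3WT was 1.09 times H3.1WT (1.05 to 1.13). H3.3 was the lower in 26 of 32 bins in the K36M lines, against 67.9% of all bins, and in 18 of 32 in the WT lines, against 64.3%. With the medians of all bins, of the chromosome and of the flanks subtracted in turn, these counts were 14, 13 and 13 in the K36M lines and 3, 2 and 10 in the WT lines. Between Dlk1 and Meg3 the ratio was 0.631 in the K36M lines (0.568 to 0.700) and 0.806 in the WT lines (0.734 to 0.885), and past Meg3 it was 0.953 (0.906 to 1.002) and 1.16 (1.11 to 1.21). The ratio past Meg3 was thus 1.51 times that between the genes in the K36M lines (1.35 to 1.69) and 1.44 times in the WT lines (1.30 to 1.60).

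Bins in which H3.3 exceeded H3.1 by 2-fold were counted beside their share of all bins, and the WT count was near that share. In the K36M lines there was 1 of 32, against 8.18% of all bins, chr12:110860001-110870000 at 2.09 times (1.72 to 2.56). In the WT lines there were 4 of 32, against 10.3%, all named because they passed: the bin before Dlk1 at 2.23 times (1.82 to 2.75), chr12:110830001-110840000 at 2.05 times (1.62 to 2.62), chr12:110860001-110870000 at 2.31 times (1.87 to 2.89) and chr12:110980001-110990000 at 2.09 times (1.68 to 2.62). No bin of either window was 2-fold lower in H3.3, against 3.29% of all bins in the K36M lines and 16.8% in the WT lines. No bin of the Igf2-H19 window was 2-fold higher. The direction at Dlk1-Meg3 depended on scaling: with the median of all bins subtracted, the median bin log2 ratio was 0.074 in the K36M lines and 0.40 in the WT lines, against -0.23 and -0.04 as deposited.

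**Figure D4:**
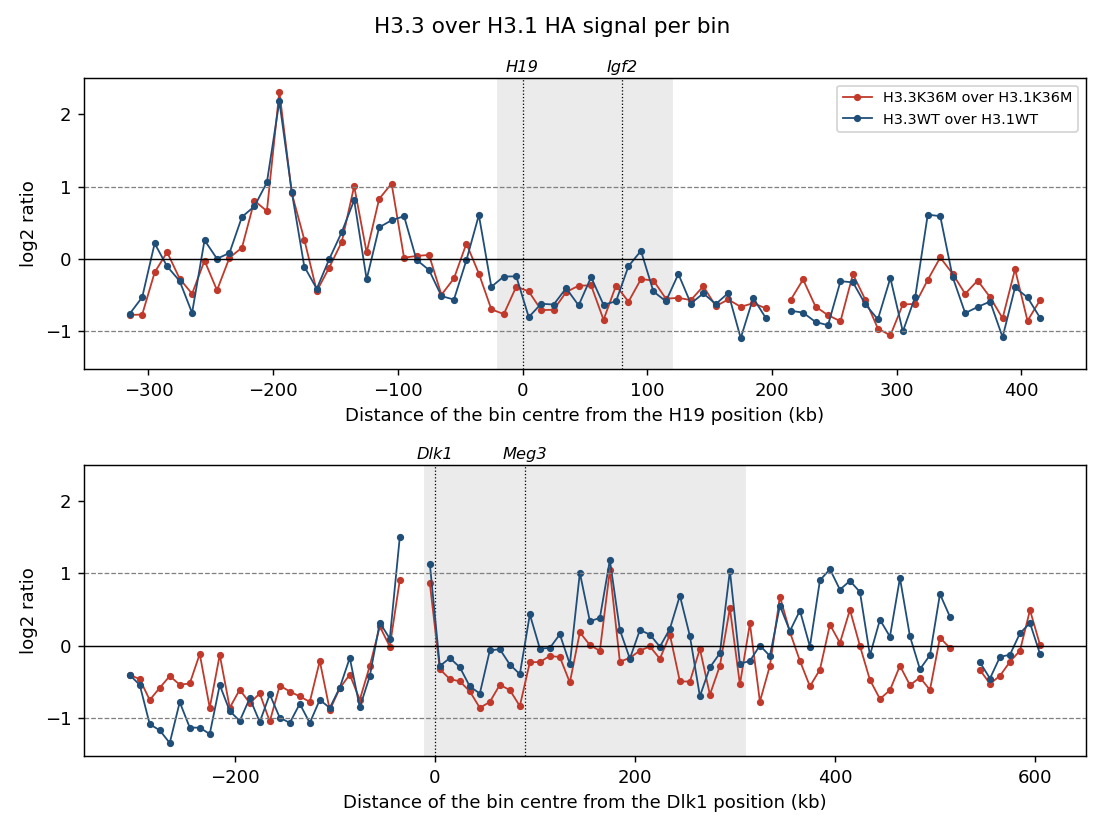
Log2 ratio per 10 kb bin (y axis, RPM plus 0.1) of H3.3K36M over H3.1K36M and of H3.3WT over H3.1WT, against the distance in kb from H19 (above) or Dlk1 (below), with the windows in grey, 2-fold as dashed lines and unused rows as gaps. Igf2-H19 bins lay below 0 except 1 in the WT lines, and at Dlk1-Meg3 the ratio was high just before Dlk1, low between Dlk1 and Meg3 and higher past Meg3.

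Both H3.3 profiles stepped down into the Igf2-H19 window from the side of H19. The 300 kb before the window averaged 6.10 RPM for H3.3K36M and 6.34 RPM for H3.3WT, with a highest bin, chr7:149560001-149570000, of 13.1 RPM for H3.3K36M and 12.6 RPM for H3.3WT. In that bin H3.1K36M held 2.55 RPM and H3.1WT 2.69 RPM. Over the same 300 kb, however, H3.1 also lay above the window, though less far. It averaged 5.27 RPM for H3.1K36M and 5.49 RPM for H3.1WT, against 4.35 and 4.03 RPM in the window. The 300 kb past the window averaged 2.90 RPM for H3.3K36M and 2.91 RPM for H3.3WT, close to the window itself. Over both flanks the window's mean was 0.669 times the flank mean in H3.3K36M (0.635 to 0.705), 0.628 in H3.3WT (0.598 to 0.659), 0.913 in H3.1K36M (0.874 to 0.953) and 0.830 in H3.1WT (0.791 to 0.871). At Dlk1-Meg3 the same values were 1.06 in H3.3K36M (1.02 to 1.10), 1.05 in H3.3WT (1.02 to 1.08), 0.999 in H3.1K36M (0.965 to 1.03) and 0.918 in H3.1WT (0.886 to 0.952). In H3.3 the values of both loci mix unlike sides, as the flank means of Igf2-H19 above show. At Dlk1-Meg3 H3.3K36M averaged 2.76 RPM before and 3.59 RPM past the window, and H3.3WT 2.92 and 5.40 RPM.

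Along the bins of Dlk1-Meg3 the H3.3 lines had like profiles. Its 32 bins are not replicates and come from the same 4 libraries. Across them the Pearson correlation of log2 RPM came to 0.850 between H3.3K36M and H3.3WT and 0.633 between H3.1K36M and H3.1WT. For the 4 pairs of an H3.3 with an H3.1 library it lay between -0.0988 and 0.110. Over the 56 flank bins, however, these mixed pairs gave 0.578 to 0.798, and Spearman coefficients of 0.256 to 0.488. The near-0 values thus hold for the window bins only. At Igf2-H19, over 14 bins, r was 0.695 for the H3.3 lines, 0.931 for the H3.1 lines and between 0.648 and 0.859 for the mixed pairs, and the low bin at Igf2 is shared by all of them.

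The authors' deposited peak lists held no peak in either window. Of all bins used, 4.25% held an H3.3K36M peak, against 0 of 46 here, and the list had 3.17 peaks per Mb over the genome, 1.93 per Mb on chromosome 7 and 3.002 per Mb on chromosome 12. At Dlk1-Meg3 the nearest H3.3K36M peaks were chr12:110656001-110657200, 12.8 kb before the window, and chr12:111037001-111038200, 37 kb past it, each 1.2 kb long. The bins with these peaks held 7.64 RPM for H3.3K36M and 9.74 RPM for H3.3WT before the window, and 6.81 RPM for H3.3K36M and 7.35 RPM for H3.3WT past it. The bin past Meg3 with 7.72 RPM for H3.3K36M, higher than either, carried no listed peak. At Igf2-H19 no H3.3K36M peak lay within 300 kb on either side, although 1 bin there reached 13.1 RPM for H3.3K36M, and the nearest was 5241.6 kb away at chr7:144495201-144498400. The H3.1K36M list, with 73 peaks in the genome, had none in the windows or their flanks.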

How the data were processed

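The HA libraries of 4 lines were used, 1 each, and groups follow the genotype labels, since both H3.3 ChIP titles start with an H3.1 name. The labels' protocol names a Cbx2 antibody, but each ChIP description names HA. Bowtie 1.0.0 and mm9 are named in the submitters' processing notes; how bins were made, duplicates handled and peaks called was not stated. RPM per bin were deposited by the authors, whose values were 100% whole multiples of 1 step per library (within 0.01 of a read), so reads were recovered. Deposited peak lists hold positions only, without score. Coordinates are 1-based. A 10 kb bin was kept where its mean over the libraries reached 0.5 RPM, and wider rows were left out. Bin ratios are log2 of RPM plus 0.1, which understates low bins. Region ratios have exact (Clopper-Pearson) intervals on reads, ratios of ratios log-normal ones; reads are not independent molecules. Steps were tested on simulated data. Gene positions are those of the selection rule, since the gene table is of another build (6 of 6 members matched by symbol).

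Named bins are those at a gene position and touching it, the stretches between positions, the highest and lowest bin of each library and comparison in each window, and bins with peaks; others are said to be chosen after their values were seen, which holds for flank bins, for window bins named because they differed by 2-fold, and for the parts of flanks and of the stretch past Meg3. The windows and lists were chosen with earlier results of these data known. Other pseudocounts, filters, scalings, flank lengths and peak lengths were tried. The work used scipy 1.17.1, numpy 2.4.6, matplotlib 3.10.9 and pandas 2.3.3 under Python 3.11.15.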

Additional observations from a re-analysis of the deposited data

Results flagged for a closer look

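In the Dlk1-Meg3 window the ratio of the K36M library over the WT library was lower for H3.3 than for H3.1. H3.3K36M was 0.770 times H3.3WT and H3.1K36M was 0.947 times H3.1WT, and the H3.3 ratio was 0.813 times the H3.1 ratio, with a 95% counting interval of 0.769 to 0.860. In the Igf2-H19 window the same quotient was 0.960 (0.879 to 1.05). The difference was not particular to the Dlk1-Meg3 window. Over both its flanks the K36M over WT ratio was 0.764 in H3.3 and 0.871 in H3.1. In the flank past the window these were 0.665 and 0.892, whereas in the flank before it the order was reversed, at 0.946 and 0.849. With 1 library per line the intervals hold no spread between cultures, so this compares 4 libraries, and the part that a line's own history plays was not tested.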

How the results depend on the processing

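Beyond the settings named here, window values stayed within their counting intervals and counts of bins within 1.5 times. With the Igf2-H19 window widened by 20 kb, H3.1K36M was below H3.1WT in 6 of 18 bins rather than 3 of 14. Counts of lower bins that moved with scaling are given beside their results. For H3.3K36M over H3.3WT the median bin log2 ratio at Igf2-H19 was 0.01, and -0.089 with the median of all bins or -0.12 with that of the chromosome subtracted. At Dlk1-Meg3 it was -0.38, and -0.31 with a pseudocount of 1 RPM, -0.48 with the median of all bins, -0.52 with that of the chromosome and -0.15 with that of the flanks subtracted; bins 2-fold lower numbered 0 rather than 1 with that pseudocount or the flank median. For H3.1K36M over H3.1WT at Dlk1-Meg3 it was -0.09, and 0.14 with the flank median subtracted. For H3.3WT over H3.1WT at Igf2-H19 it was -0.52, and -0.40 with a pseudocount of 1 RPM, -0.085 with the median of all bins, -0.050 with that of the chromosome and -0.19 with that of the flanks subtracted. At Dlk1-Meg3 it was -0.04, and 0.40, 0.53 and 0.15 with these 3 medians subtracted, and bins 2-fold higher numbered 1 rather than 4 with a pseudocount of 1 RPM. For H3.3K36M over H3.1K36M it was -0.46 at Igf2-H19, and -0.15, -0.13 and -0.16 with the same 3 medians subtracted. At Dlk1-Meg3 it was -0.23, and 0.074, 0.12 and 0.19 with them, where bins 2-fold higher numbered 2 in each, and 0 with a pseudocount of 1 RPM, against 1. Subtraction shifts every bin by the same amount; the cause of other moves was not tested.

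Window over flank ratios moved with the flank length and the use of medians. At Igf2-H19 medians gave 0.803 in H3.3K36M, 0.796 in H3.3WT and 1.02 in H3.1K36M, and flanks of 1 Mb gave 0.973 in H3.1K36M and 0.959 in H3.1WT. At Dlk1-Meg3 flanks of 100 kb gave 0.882 in H3.3K36M, 0.785 in H3.3WT, 0.945 in H3.1K36M and 0.830 in H3.1WT. Flanks of 1 Mb gave 0.720, 0.824 and 0.859 in H3.3K36M, H3.3WT and H3.1K36M, and medians gave 1.11, 1.21 and 0.949. In H3.3 the window thus lay above its flanks with 300 kb on each side and below them with 100 kb or 1 Mb. Peaks in the Dlk1-Meg3 flanks numbered 2, but 0 among peaks at or above the median length and 9 with flanks of 1 Mb. No paired analysis was possible because each line has 1 HA library. Depth limits single bins, of which the Igf2 bin held 53 to 93 reads.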
